A study of Rattus norvegicus with 6 samples.

Results

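The peroxisome proliferator-activated receptors are a family of 3 nuclear receptors, Ppara, Ppard and Pparg, and their transcripts were measured here in fetal rat forebrain. The 3 genes were chosen by their Ensembl identifiers (ENSRNOG00000021463, ENSRNOG00000000503 and ENSRNOG00000008839, in that order). The choice was made with earlier results of these data known. All 3 were among the 17581 genes listed. The deposited table gives identifiers alone, and the symbols used here are those of the list that chose the rows. They were not checked against a table that pairs identifiers with symbols.

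Each of these receptors binds DNA as a partner of a retinoid X receptor and is switched on by fatty acids and related lipids. Ppara is best known for driving fatty acid oxidation in liver, Ppard is expressed in most tissues and acts on lipid use in many of them, and Pparg is the main regulator of fat cell formation. In brain, Ppard is the member usually described as the most widespread. Pparg is also the receptor that triphenyl phosphate, an organophosphate component of the flame-retardant mixture studied here, has been described to activate in cell assays.

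RNA was sequenced from forebrain of Wistar rat fetuses, an outbred laboratory strain, on gestational day 18. Dams of the 3 control fetuses received vehicle (0 µg), and dams of the 3 high-dose fetuses received 1000 µg of FM550 per day, close to 3.3 mg per kg daily. FM550 is a flame retardant sold for foam furniture, made of organophosphates and brominated esters. Both groups were dosed once daily, by a dosed food pellet, over gestational days 9 to 18, and forebrain was microdissected from frozen heads taken 4 hours after the last dose. All 6 fetuses are labelled male, although the growth protocol describes both sexes, and the protocol's lower dose was not analysed here. The dams were dosed for an average colony weight, not by their own, and the sources used here do not say whether fetuses of a group were littermates. P-values therefore measure the spread between these samples.

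Library totals ran from 10525138 to 27100394 counts, and both the deepest and the shallowest library were in the high-dose group. High-dose replicate 2 lay farthest out on the first principal component of log2 CPM (38.8% of the variance, CPM being counts with each library scaled to the same total), at 35.9, with the other 5 libraries between -23.6 and 8.99. Control replicate 3 deviated from its group most nearly as that library did from its own, the correlation over genes being 0.414, above those of the other 8 pairs between the groups. Results on the receptors are also given without high-dose replicate 2, and without both. The labelled tissue could not be checked against marker genes, because 0 of the listed identifiers could be paired with a symbol in the gene table used here. For the same reason the partners, coregulators, ligand carriers and targets of the receptors were not analysed here.

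The 3 receptors differed greatly in how many reads stood behind them. Ppard had 1269 counts over the 6 libraries, from 117 to 313 per library. Ppara had 67 counts, from 6 to 21 per library, and Pparg had 12, from 0 to 7. Ppara and Pparg are thus low-count genes in these libraries. These counts were not divided by transcript length, so they state the precision of each measurement and not the order of the receptors' levels. Ppard and Ppara passed the filter on low counts and were tested with 13615 other genes. Pparg did not pass it and is described by its counts.

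**Figure D1:**
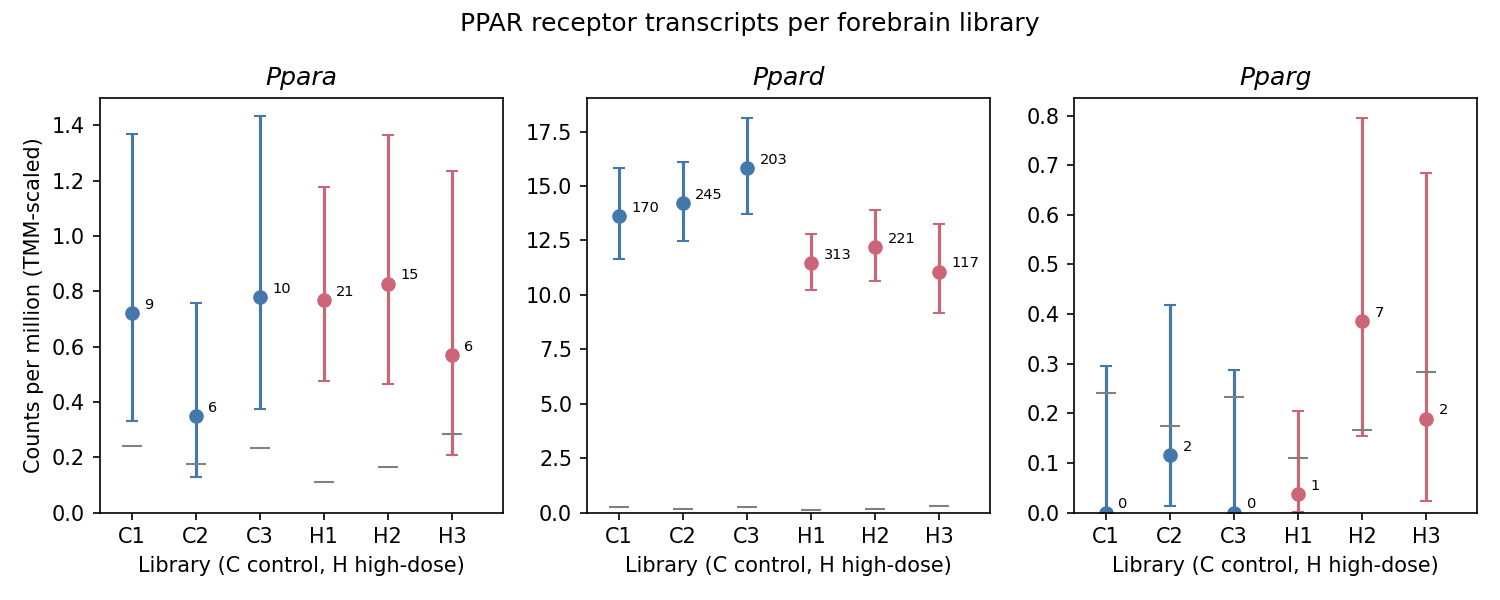
CPM (y axis, TMM-scaled, starting at 0, scaled separately in each panel) of Ppara, Ppard and Pparg in each control (C1 to C3) and high-dose FM550 (H1 to H3) library, with the raw count beside each point and its exact 95% Poisson interval as the bar, which covers counting error only. Grey ticks mark the level of 3 counts in that library. Ppard lies between 13.6 and 15.8 in controls and between 11.1 and 12.2 in high-dose libraries, whereas the groups overlap for Ppara and Pparg.

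Ppard, the receptor with enough reads for a close measurement, was lower in every high-dose library than in any control, but the difference did not pass the test over all genes. Ppard was at 13.6, 14.2 and 15.8 CPM in control replicates 1, 2 and 3. It was at 11.5, 12.2 and 11.1 CPM in high-dose replicates 1, 2 and 3. The highest high-dose value, in replicate 2, was below the lowest control value, in replicate 1, so the groups did not overlap. The same separation, lower in high-dose, was found in 6.52% of tested genes. The control mean was 14.5 ± 1.13 CPM and the high-dose mean 11.6 ± 0.568 CPM (SD, n = 3 each).

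The fitted high-dose level of Ppard was 79.7% of the control level, with a 95% interval from 65.4% to 97.2%. On the log2 scale the difference was -0.33 with a standard error of 0.12 (interval -0.61 to -0.04). Its adjusted p was 0.560 by edgeR's quasi-likelihood test with Benjamini-Hochberg adjustment over the 13617 genes tested, and its unadjusted p was 0.0294. In that fit, 0.00734% of tested genes passed the adjusted threshold of 0.05 and 7.4% had an unadjusted p under 0.05, of which the genes with lower values made up 4.33% of those tested. Ppard stood at rank 713 by p. Separation of the groups in the direction seen for Ppard occurred in 6.52% of tested genes, and in either direction in 11.7%. An exact two-sided permutation test over the 6 libraries gave p = 0.1, the smallest that 3 against 3 libraries allow. Fewer cells that carry the transcript and less transcript per cell cannot be told apart in these bulk samples.

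Ppard was among the more evenly measured genes of its depth. Within groups its CPM had a coefficient of variation of 6.51%, close to the 7.21% that counting error alone gives for its counts. The median was 13.1% over the 1091 other tested genes whose summed count was within 1.25-fold of that of Ppard. The standard error of its log2 difference was below the median of 0.16 for those genes, 9.72% of which had a smaller one. Of those genes, 9.44% had an unadjusted p under 0.05 by edgeR and 7.61% separated the groups in the direction seen for Ppard. Differences larger in size than that of Ppard were fitted for 14% of those genes and for 14.4% of all tested genes. The median log2 difference over all tested genes was 0.00.

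**Figure D2:**
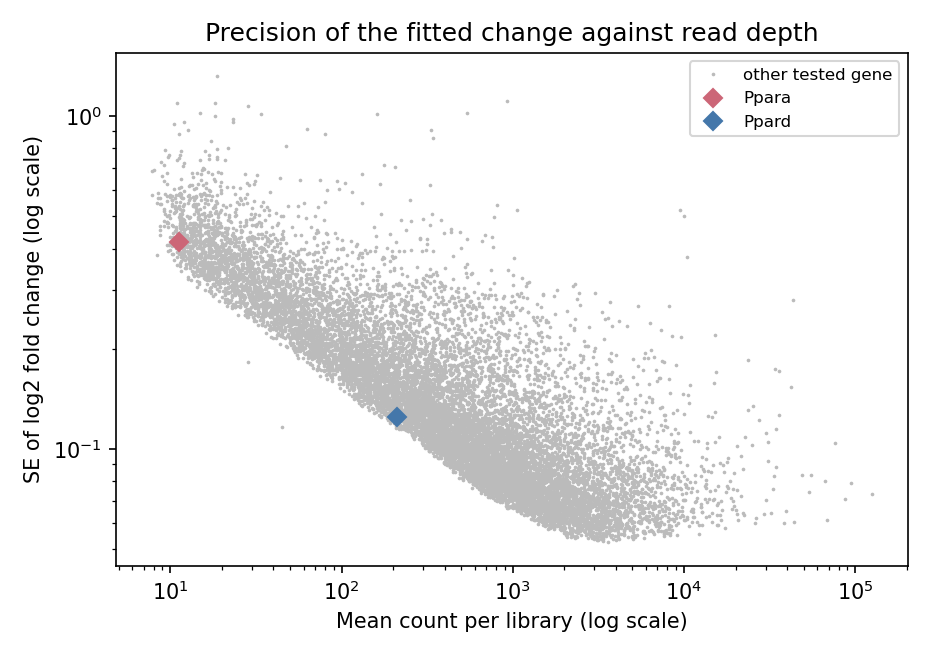
Standard error of the log2 fold change (y axis, log scale) against mean count per library (x axis, log scale) for the 13617 tested genes, each grey point being 1 gene, with Ppara and Ppard as diamonds. Ppard has a standard error of 0.12, near the lower edge of genes of its depth, and Ppara one of 0.42.

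The difference in Ppard was as large without high-dose replicate 2, at -0.36 with a standard error of 0.14 (edgeR unadjusted p = 0.0294, adjusted p = 0.547). Its unadjusted p did not stay under 0.05 in each other fit. Control replicate 3 held the highest control value and high-dose replicate 2 the highest high-dose value. Without control replicate 3 and high-dose replicate 2 together, a choice made after seeing the data, the log2 difference was -0.30 with a standard error of 0.14 (edgeR unadjusted p = 0.0549, adjusted p = 0.388). Leaving out single libraries gave log2 differences of -0.38 to -0.26, the nearest to 0 being without control replicate 3 (edgeR unadjusted p = 0.0909). The edgeR unadjusted p was 0.0539 without control replicate 2, 0.0734 without high-dose replicate 1 and 0.0815 without high-dose replicate 3. Without control replicate 1 it was 0.0359. DESeq2 gave -0.32 with a standard error of 0.16 (unadjusted p = 0.0471, adjusted p = 0.791), where 5.48% of genes had an unadjusted p under 0.05 and 1.28% of those given an adjusted p were past that threshold.

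For Ppara, the receptor of fatty acid oxidation, the values of the groups overlapped and no difference was detectable at this depth. Ppara was at 0.721, 0.348 and 0.779 CPM in control replicates 1, 2 and 3, on 9, 6 and 10 counts. It was at 0.769, 0.827 and 0.568 CPM in high-dose replicates 1, 2 and 3, on 21, 15 and 6 counts. Control replicate 2 was the lowest of the 6 libraries, and the other 5 lay between 0.568 and 0.827 CPM. The control mean was 0.616 ± 0.234 CPM and the high-dose mean 0.721 ± 0.136 CPM (SD, n = 3 each).

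The fitted log2 difference of Ppara was 0.30 with a standard error of 0.42 (edgeR, unadjusted p = 0.489, Benjamini-Hochberg adjusted p = 0.999). Its 95% interval ran from -0.66 to 1.26, that is from 63.5% to 240.007% of the control level, so sizeable differences in either direction lie within what these counts allow. The sign depended on control replicate 2: without it the log2 difference was -0.02 with a standard error of 0.43. Without control replicate 3 and high-dose replicate 2 it was 0.45 with a standard error of 0.58, and without high-dose replicate 2 alone 0.22 with a standard error of 0.49. The exact two-sided permutation test over the 6 libraries gave p = 0.6. Within groups the coefficient of variation of Ppara was 30%, where counting error alone gives 33.1%.

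For Pparg, the receptor of fat cell formation, reads were close to absent in all libraries. Control replicates 1, 2 and 3 had 0, 2 and 0 counts, or 0, 0.116 and 0 CPM. High-dose replicates 1, 2 and 3 had 1, 7 and 2 counts, or 0.0366, 0.386 and 0.189 CPM. A count of 0 allows a level of up to 0.240 CPM in control replicate 1 and 0.234 CPM in control replicate 3, taking 3 counts as the limit. High-dose replicate 2 was the one library above both limits.

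Pooled over libraries, Pparg had 2 counts in controls, or 0.0470 CPM, and 10 counts in high-dose forebrain, or 0.179 CPM. The ratio of the 2 pooled rates was 3.80, with an exact 95% interval from 0.810 to 35.7 that covers counting error only and compares these libraries, not the conditions. Of the 10 high-dose counts, 7, or 70%, came from high-dose replicate 2, the library farthest out on the first principal component. Without that library the high-dose group had 3 counts, or 0.0792 CPM. What sets that library apart, and its part in this count, was not tested. The exact two-sided permutation test over the 6 libraries gave p = 0.2. Fitted without the low-count filter, Pparg had a log2 difference of 1.88 with a standard error of 1.27 (edgeR unadjusted p = 0.168, adjusted p = 0.948). Pparg has alternative first exons that give more than one protein form, and counts per gene do not separate them.

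The balance between Ppara and Ppard within a library does not depend on how libraries are scaled. Per 100 Ppard reads there were 5.29, 2.45 and 4.93 Ppara reads in control replicates 1, 2 and 3. There were 6.71, 6.79 and 5.13 in high-dose replicates 1, 2 and 3. The lowest high-dose value, in replicate 3, lay below that of control replicate 1, so the groups overlapped. Means were 4.22 ± 1.55 in controls and 6.21 ± 0.936 in high-dose libraries (SD, n = 3 each; exact two-sided permutation p = 0.2, where 0.1 is the smallest possible). The difference of 1.99 was 1.098 without control replicate 2. This ratio was chosen after seeing the data. As a ratio of reads it carries the lengths of both transcripts, so it compares libraries and does not give the relative abundance of the receptors.

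**Figure D3:**
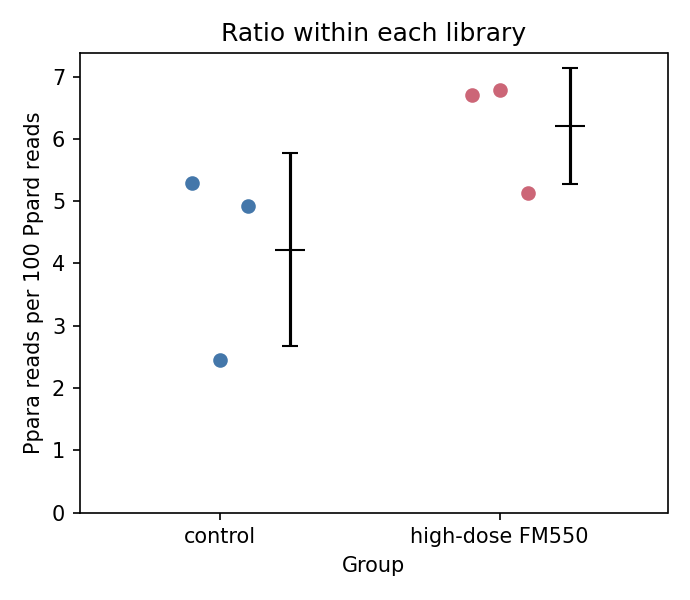
Ppara reads per 100 Ppard reads (y axis, linear from 0) by library, each point being 1 library of the group named on the x axis, and the black bar the mean and SD (n = 3). The values run from 2.45 to 5.29 in controls and from 5.13 to 6.79 in high-dose libraries, and overlap.

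The gene whose values followed Ppard most closely over the 6 libraries was ENSRNOG00000002045, by Pearson's r of log2 CPM among 13615 genes (r = 0.987). This gene was at 13.1, 13.0 and 14.6 CPM in control replicates 1, 2 and 3. It was at 10.3, 11.4 and 9.94 CPM in high-dose replicates 1, 2 and 3. Like Ppard it was highest in control replicate 3 and, among high-dose libraries, in replicate 2. Because it was picked by this correlation, its likeness to Ppard in these libraries is not a separate result. Its log2 difference was -0.36 ± 0.13 (standard error; edgeR adjusted p = 0.501). An r above 0.9 with Ppard was reached by 93 genes, or 0.683%, on 6 points that share the same libraries and the same group difference.

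The gene most like Ppara, picked by the same correlation, was ENSRNOG00000000528 (r = 0.993 over the 6 libraries). It had 18 to 56 counts per library and ran from 1.33 CPM in control replicate 2, the library that was also lowest for Ppara, to 2.05 CPM in high-dose replicate 1. Its log2 difference was 0.18 ± 0.27 (standard error; edgeR adjusted p = 0.999). The likeness of this gene to Ppara, also in control replicate 2, follows from how it was picked and is not a separate result. For Ppara 104 genes, or 0.764%, had an r above 0.9. With as few as 6 counts in a library, such a correlation follows counting error as well as level. No like gene was sought for Pparg, which was not tested.

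**Figure D4:**
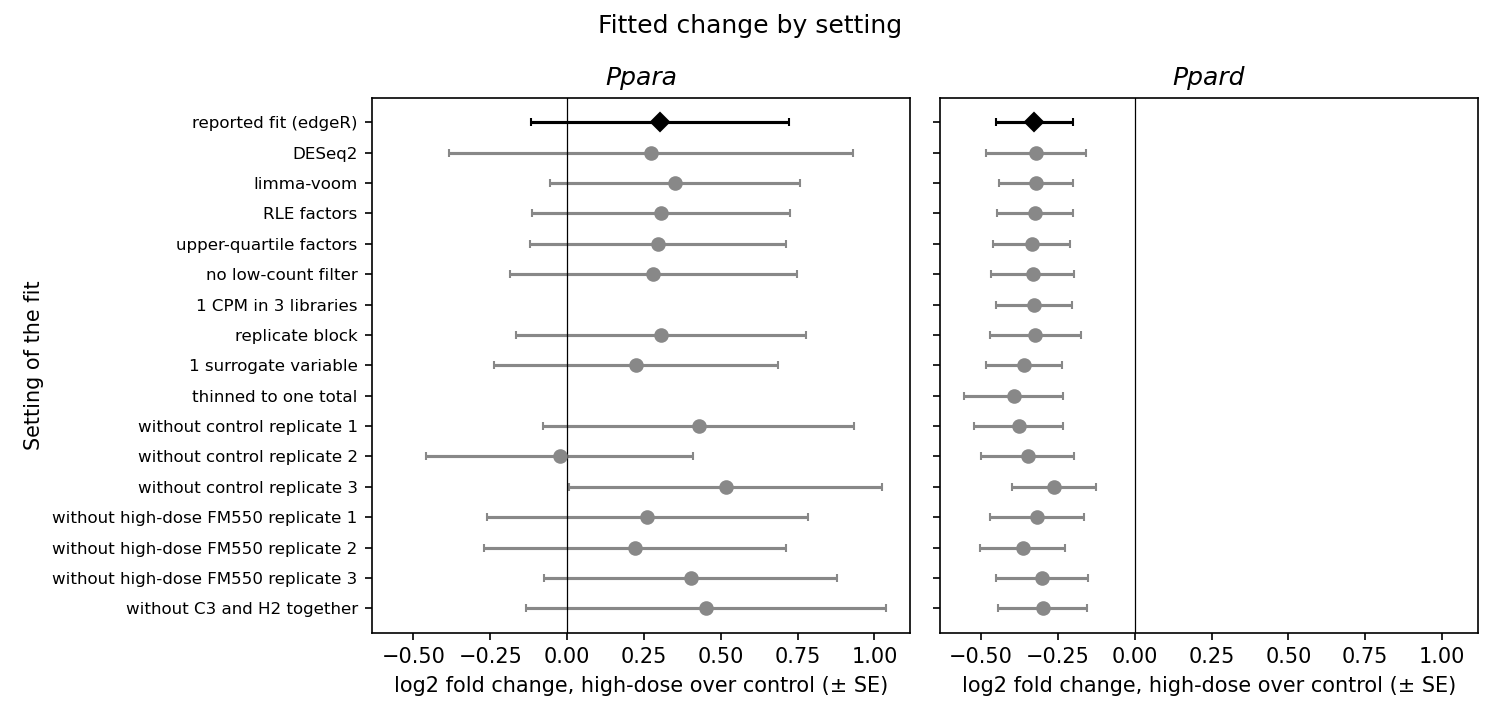
Fitted log2 fold change of Ppara and Ppard, high-dose over control (x axis, with the standard error as the bar), under each setting of the fit (y axis), the black diamond being the reported edgeR fit. Ppard lies between -0.39 and -0.26 in all other settings, whereas Ppara runs from -0.02 to 0.52 and has no value where it was filtered out. C3 is control replicate 3 and H2 high-dose replicate 2.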

How the data were processed

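Poly(A) RNA of 6 forebrains was sequenced from strand-marking libraries, per the labels' protocols. The submitters' processing notes name FastQC, STAR, HTSeq and the genome build rn6. The sources used here do not give tool versions, the gene annotation or whether counting used strand. Where another gene overlaps a receptor gene, reads may therefore be mixed between them or left out of the counts. The deposited table holds the authors' raw counts per gene, whole numbers without normalization, with no row of unassigned reads. Columns were tied to samples by the library names in the labels, and groups by the sample titles.

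The whole table was fitted with edgeR 4.0.16 (limma 3.58.1, R 4.3.3) by the quasi-likelihood F test, robustly and with TMM scaling, on group alone. The filter filterByExpr, with a minimum count of 10 and a minimum total of 15, kept 13617 genes. Adjustment was by Benjamini-Hochberg. Standard errors of log2 fold changes were derived from F. CPM used TMM-scaled totals, and log2 CPM a prior count of 2. Poisson intervals (95%) and the limit of 3 counts cover counting error only.

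Alternatives were limma-voom, DESeq2 1.42.0, upper-quartile and RLE factors, no filter, at least 1 CPM in 3 libraries, a replicate block, 1 surrogate variable (sva 3.50.0), thinning to the smallest total, and leaving out libraries. The thinning was a single random draw, and it gave the Ppard difference farthest from 0, -0.39. The fits were tested on simulated data whose planted changes were larger than those fitted for Ppard and Ppara. That test therefore does not cover changes of their size. No libraries of a group agreed within sampling noise (chi-square per degree of freedom 6.09 to 27.4).

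The receptors and the lists of pathway and marker genes were chosen with earlier results of these data known. The lists (receptor partners, coactivators, corepressors, ligand carriers, targets and cell type markers) were given by symbol and were not used, since the gene table (GRCr8, 47357 genes) carries no Ensembl identifier. The named genes are the 3 receptors and, for each tested receptor, the gene of highest correlation. No coordinates are given because that build differs from rn6.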

Additional observations from a re-analysis of the deposited data

How the results depend on the processing

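No alternative brought a receptor past an adjusted p of 0.05. Ppard was lower in high-dose forebrain in all 16 alternatives (log2 difference -0.39 to -0.26, adjusted p 0.196 to 1.00), and its unadjusted p was under 0.05 in 10 of them. In the fit with a replicate block the log2 difference of Ppard was -0.32 (edgeR unadjusted p = 0.0712, adjusted p = 0.963) and that of Ppara 0.31. The deviations of same-numbered libraries correlated at 0.227, -0.275 and -0.21. Deviations within groups of 3 libraries are not independent, so these values cannot show whether the numbers paired the samples. Ppara was higher in 13 of 14 alternatives, and -0.0245 without control replicate 2. Leaving out single libraries gave -0.0245 to 0.52, and the filter of 1 CPM and the thinning removed the gene. For Pparg, tests were limited by its 12 counts. Its mean CPM differed by 0.165, by 0.0945 after thinning, by 0.0745 without high-dose replicate 2 and by 0.0556 without control replicate 3 and high-dose replicate 2, and by 0.0745 to 0.249 over all single libraries left out. DESeq2 gave Pparg no adjusted p.

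Over the whole table, 1 gene passed in the reported fit, 198 with DESeq2, which filters differently, 26 with no low-count filter, 0 with the replicate block, 277 with 1 surrogate variable, 3 after thinning, 412 without control replicate 3 and high-dose replicate 2, and 0 to 24 with single libraries left out (0 without high-dose replicate 3 and without either of control replicates 1 and 2, 3 without high-dose replicate 1, 10 without high-dose replicate 2 and 24 without control replicate 3). For these shifts the cause was not tested. By edgeR, 786 genes had an unadjusted p under 0.05 with the block and 1008 in the reported fit. The planned counts over pathway genes were not run.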
